A study of Homo sapiens with 6 samples.

Results

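Epithelial-mesenchymal transition (EMT) genes were followed on 6 single-colour Agilent arrays of SKOV3 cells, an established human ovarian cancer line. The set held 43 genes, 37 of mesenchymal and 6 of epithelial character, and was chosen by gene name. Of the 43, 42 had at least 1 probe that matched a transcript of the gene in sense, out of 43495 genes with such a probe on the whole array. For 40 of them a probe matched a protein-coding transcript, out of 18614 genes on the array. TNC (tenascin C) had no matching probe, and FBN1 and PDGFRB had only probes to transcripts without an annotated coding sequence. Of the 6 arrays, 3 were labelled as cells given 100 nmol/L 1α,25(OH)2D3, the active form of vitamin D, for 72 h, and 3 as cells given the ethanol vehicle for the same time. All 6 samples were labelled as the same line with no other treatment named. The labels spell the line in more than one way, and all 6 titles read SKOV-1, where the paper names SKOV3.

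In EMT, epithelial cells loosen their junctions, lose apical-basal polarity and take on a motile, spindle-shaped form. The transcription factors of the SNAI, ZEB and TWIST families repress E-cadherin (CDH1) and other epithelial genes, while vimentin, N-cadherin (CDH2), matrix proteins and contractile proteins become more abundant. ESRP, GRHL and OVOL proteins act on the epithelial side. Intermediate states that carry markers of either kind are common in carcinoma lines.

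CYP24A1, the enzyme that breaks down 1α,25(OH)2D3 and a textbook target gene of the vitamin D receptor, did not follow the labels, so every group below is named by its label only. Signals are log2 values of the scanner's processed signal, scaled so that 0 is the 75th percentile of an array, and 6 values in a row stand for the arrays labelled 1α,25(OH)2D3 replicates 1 to 3 and then vehicle replicates 1 to 3. The CYP24A1 probe in exon 12 read -5.10, 6.70, -3.80, 6.90, -2.48 and 7.29. It was well above background, by the scanner software's own flag, on 1α,25(OH)2D3 replicate 2 and vehicle replicates 1 and 3 only. A second probe in exon 10 read -3.16, 7.43, -2.63, 7.93, 1.07 and 8.19. This probe was well above background on vehicle replicate 2 too, and not on 1α,25(OH)2D3 replicates 1 and 3 only. Thus 2 of the 3 arrays labelled vehicle carried a high CYP24A1 signal, and 2 of the 3 labelled 1α,25(OH)2D3 did not. The first slide held 1α,25(OH)2D3 replicates 1 and 2, and the second slide held the other 4 arrays, so that only the second slide holds both labels. With slide as a block, as within that slide, a difference sets 1α,25(OH)2D3 replicate 3 alone against vehicle replicates 1 to 3.

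Markers of the labelled line gave signal above background. Of 8 markers of an ovarian carcinoma line, 7 had a probe and all 7 were well above background on the 6 arrays, among them ERBB2, the receptor kinase amplified in SKOV3, at 6.67, 6.09, 6.95, 7.09, 6.41 and 6.01. The dimmest of the 7 was PAX8, at 1.65, 0.32, 1.77, 1.19, 1.46 and 1.23. Of 4 fibroblast markers none was above background on all 6 arrays, and COL3A1 and PDGFRA were above it on none. Their signal, summed and put on the log2 scale, ran from 0.47 to 1.45 under the 1α,25(OH)2D3 label and from -1.91 to 0.74 under the vehicle label. The flag does not by itself show expression, since probes of 3 of 4 endothelial markers (PECAM1, CDH5, VWF) and of the leukocyte markers PTPRC, CD3E and CD14 were also flagged as well above background on all 6 arrays. On the same scale the summed endothelial signal lay between 1.79 and 1.96 and between 1.90 and 2.26 under the 2 labels, and the summed signal of these 3 leukocyte markers between 2.20 and 2.46 and between 2.21 and 2.36. The part of other cell types in the values below was not tested. In RNA from a whole culture, fewer cells of a type and less RNA per cell cannot be told apart.

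Most mesenchymal genes gave signal above background in these cells, and E-cadherin hardly did. For each gene the probe with the highest mean in the deposited table was used, among those matching a protein-coding transcript. By these probes 26 of 40 genes were well above background on all 6 arrays, 7 on some and 7 on none. Of 34 mesenchymal genes 24 were above background on all 6 arrays, 4 on some and 6 on none. Of 6 epithelial genes 2 were above on all 6, 3 on some and 1 on none. These 6 do not stand for epithelial genes at large, since 26 of 30 further epithelial junction and polarity genes were above on all 6. Of all probes with a value, not only the brightest of each gene, 57103 of 125584 were. The mesenchymal genes not above background on any array were THY1, POSTN, DCN, FAP, WNT5A and GREM1, which are mostly products of fibroblasts and stroma.

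**Figure D1:**
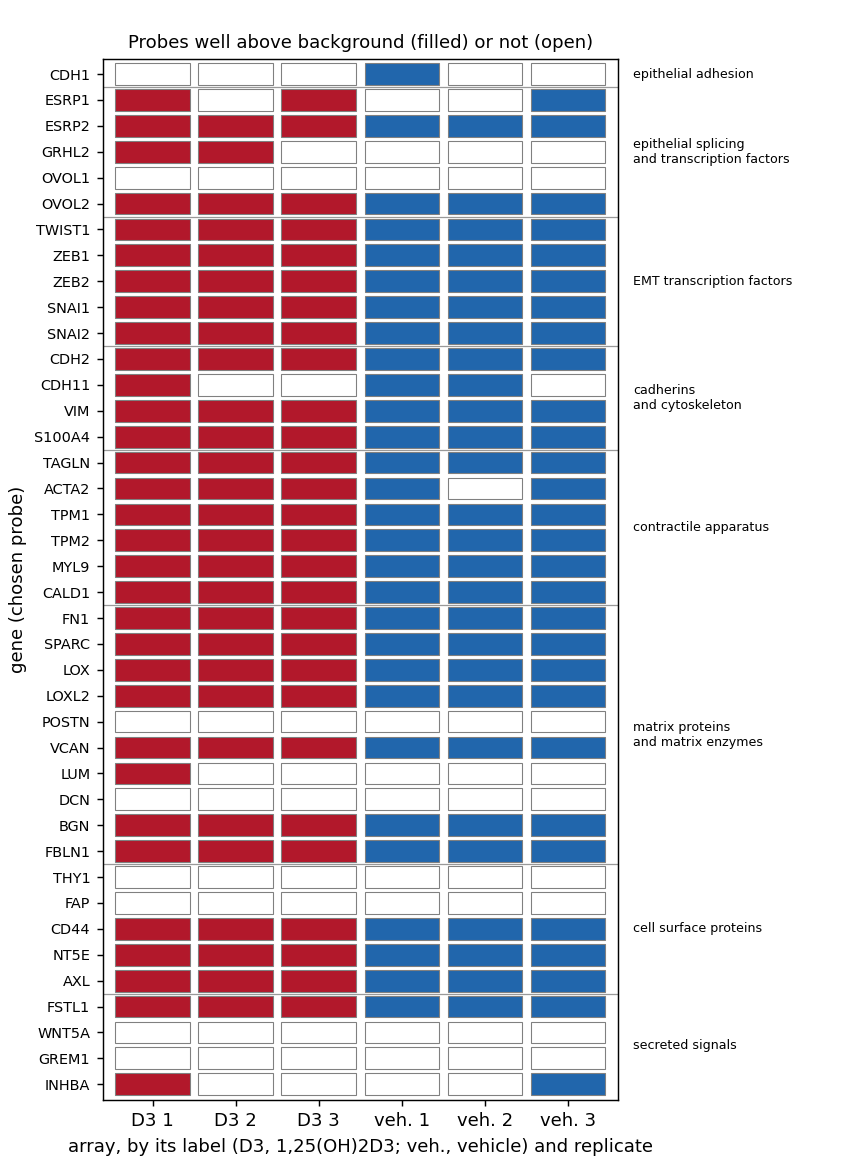
Each row is a gene, grouped by role, and each column an array named by its label and replicate; a filled box marks a chosen probe well above background (red, 1,25(OH)2D3 label; blue, vehicle label) and an open box one that is not. By the chosen probes all 5 EMT transcription factors are filled on all 6 arrays, whereas CDH1 is filled on vehicle replicate 1 alone.

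No EMT gene differed between the labels past either threshold. The question put by the labels is whether 1α,25(OH)2D3 changes gene expression, and 27 members could be tested, the 26 above background on all 6 arrays and ACTA2, which passed through the 1α,25(OH)2D3 label. With limma's adjusted p under 0.05, 0 of 27 members were called, and the percentage of all 63372 probes tested that were called was 0.0. The methods' t-test on the same values also called 0 members by either rule. The looser rule asked for more than a 2-fold difference with limma's unadjusted p below 0.05, and it called 0 of 27 members, against 0.811% of all probes (0.587% higher and 0.224% lower with the 1α,25(OH)2D3 label). Counted without the fold, SNAI1 alone had an unadjusted p under 0.05, 1 of 27 against 6.46% of all probes. It was also the 1 member whose labelled groups did not overlap, against 11.5% of all probes. Log2 differences, 1α,25(OH)2D3 label minus vehicle label, were above 0 for 7 members and below 0 for 20, with a median of -0.12 beside 0.00 over all probes tested. Members' adjusted p-values ran from 0.712 to 0.988. The 3 arrays a label limit what could be seen, since in simulated arrays of the same spread limma recovered 72 of 100 probes changed by 2 on the log2 scale and 6 of 100 changed by 1. The changed probes were drawn from all probes tested, so the counts need not hold for members of wide spread, such as TAGLN and SNAI2. The simulation placed every change by the labels, which CYP24A1 did not follow, so these counts hold only if the labels are right. A difference that misses the threshold is therefore not shown to be absent, and the 95% intervals below give the range that these arrays leave. Nothing in the labels says that replicates came from separate cultures, so p-values measure only the spread between these samples, which may be technical.

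**Figure D2:**
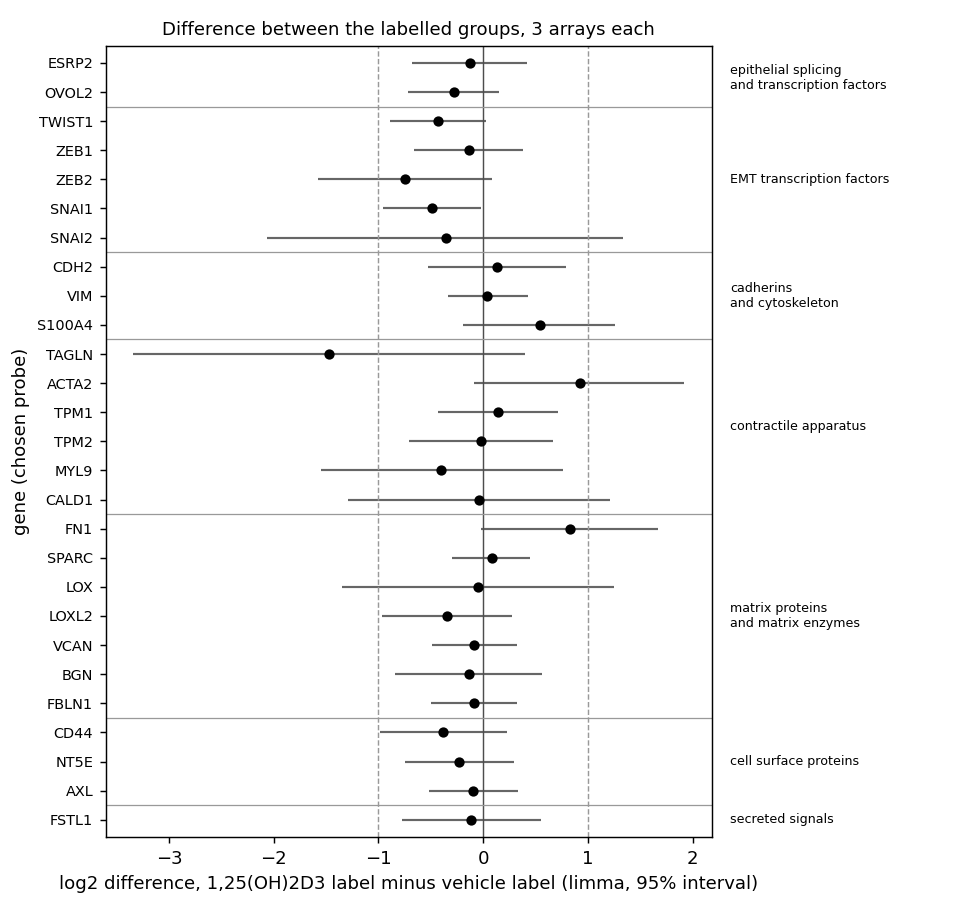
Points give the log2 difference between the labels for each of the 27 genes tested and bars its 95% interval from limma (3 arrays a label); dashed lines mark a 2-fold difference. The intervals of 26 genes include 0; that of SNAI1 runs from -0.96 to -0.02, and that of TAGLN is the widest, from -3.34 to 0.40.

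By their chosen probes all 5 EMT transcription factors were well above background on every array, and all 5 had a log2 difference below 0, with a median of -0.43. Other probes to coding transcripts of TWIST1 (1 probe) and ZEB2 (3 probes) were above background on no array. These proteins bind E-boxes in the promoters of epithelial genes and repress them. SNAI1 (Snail; probe at chr20:49988633-49988692, hg38, plus strand, 3′ UTR of exon 3 of 3) read -2.10, -1.64, -1.57, -1.25, -1.09 and -1.50. Its 3 vehicle values all lay above its 3 values under the other label, though the closest pair was 0.07 apart. The log2 difference was -0.49 (SE 0.203; limma, adjusted p = 0.712). With slide as a block, which leaves the contrast within the second slide, it was -0.29 (SE 0.27; limma, adjusted p = 0.988).

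TWIST1, a basic helix-loop-helix factor, and ZEB2, a zinc finger repressor, came closest after SNAI1 within this family. The sequences of their probes, shown here because the values rest on them, lie wholly in coding sequence:
TWIST1 (chr7:19116839-19116898, minus strand, exon 1 of 2): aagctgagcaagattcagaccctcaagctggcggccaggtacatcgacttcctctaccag
ZEB2 (chr2:144424796-144424855, minus strand, exon 4 of 10): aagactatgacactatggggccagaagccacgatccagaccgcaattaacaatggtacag
TWIST1 read 1.36, 1.52, 1.33, 1.46, 1.97 and 2.07, a log2 difference of -0.43 (SE 0.199; 95% interval -0.89 to 0.03). Vehicle replicates 2 and 3 were its highest arrays, and vehicle replicate 1 lay among the arrays of the other label. TWIST2, of the same family, read 1.34, 1.93, 1.16, 1.56, 2.21 and 1.99 by a 3′ UTR probe. Its log2 difference was -0.44, near that of TWIST1. The part of TWIST2 in the TWIST1 signal was not tested. ZEB2 read -2.17, -2.71, -2.35, -1.85, -0.85 and -2.28, a log2 difference of -0.75 (SE 0.357; 95% interval -1.58 to 0.08), which rested mostly on vehicle replicate 2. Without vehicle replicate 3 the ZEB2 difference was -1.06 and met the looser rule (limma, adjusted p = 0.838). A pair of other ZEB2 probes, to retained-intron transcripts, gave log2 differences of the opposite sign, 0.29 and 0.75.

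ZEB1, the other ZEB family repressor, read 1.49, 1.91, 1.29, 1.39, 1.81 and 1.90, a log2 difference of -0.14 (95% interval -0.66 to 0.38) and of -0.41 with slide as a block. SNAI2 (Slug) varied more than any other of the 5. It read 3.40, 4.25, 2.67, 2.23, 3.91 and 5.28, so that the lowest and the highest array both carried the vehicle label. Its SD within a label was 1.21, larger than that of 99.7% of probes tested and well over the median SD of 0.25. The log2 difference was -0.36 (SE 0.728; 95% interval -2.06 to 1.33), and it was 0.37 without vehicle replicate 3 and 0.02 without 1α,25(OH)2D3 replicate 3. It was -1.15 without vehicle replicate 1 and -1.14 with slide as a block, so that size and sign varied with the arrays used.

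Of the 4 cadherins and cytoskeletal genes that mark mesenchymal cells 3 were tested, and none passed either threshold. All 3 log2 differences were above 0, though those of CDH2 (-0.10) and VIM (-0.08) lay below 0 with slide as a block. Vimentin (VIM), the intermediate filament of mesenchymal cells, read 10.03, 10.08, 9.87, 9.88, 9.81 and 10.16. By this probe, in the 5′ UTR of exon 1 of 2, it was among the steadiest of the members, with an SD within a label of 0.15. The probe matched 1 transcript only. Its log2 difference was 0.04 (95% interval -0.34 to 0.43). A second probe over exons 9 and 10 of 10, in coding sequence, matched 4 transcripts. It read 7.82, 8.05, 7.45, 7.91, 7.90 and 7.66 and gave a log2 difference of -0.05 (SE 0.198). N-cadherin (CDH2), the adhesion molecule that replaces E-cadherin in EMT, read 1.63, 1.65, 1.29, 1.79, 0.75 and 1.64, with vehicle replicate 2 below the rest and a log2 difference of 0.13 (95% interval -0.53 to 0.79). S100A4, a calcium-binding protein of motile cells, had a log2 difference of 0.54 (SE 0.313; 95% interval -0.19 to 1.26), with values of 5.47, 4.36, 5.04, 4.34, 4.10 and 4.82 that overlapped. CDH11, a cadherin of mesenchymal cells, was above background on 3 arrays (1α,25(OH)2D3 replicate 1 and vehicle replicates 1 and 2), at -1.93, -2.39 and -1.96, and was not tested.

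TAGLN (transgelin, an actin-binding protein of smooth muscle and myofibroblasts) had the widest spread of the 27 members tested. Its chosen probe (chr11:117204439-117204498, plus strand, 3′ UTR of exon 5 of 5) read 3.30, 3.56, 3.48, 2.72, 5.88 and 6.14. The means were 3.44 ± 0.13 (SD, n = 3) under the 1α,25(OH)2D3 label and 4.91 ± 1.90 (SD, n = 3) under the vehicle label. Vehicle replicates 2 and 3 stood above the other 4 arrays, while vehicle replicate 1 was the lowest of the 6. A second probe repeated this order in the coding sequence, where the capitals mark the bases of exon 5 of 5 after those of exon 4:
TAGLN (chr11:117203858-117204247, plus strand): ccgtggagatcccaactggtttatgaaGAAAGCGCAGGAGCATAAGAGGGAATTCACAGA
This second probe read 2.00, 2.24, 2.11, 1.38, 4.71 and 4.92. The log2 differences were -1.47 (SE 0.806; limma, adjusted p = 0.712) by the chosen probe and -1.55 (SE 0.839; limma, adjusted p = 0.712) by the second. Another probe, also in 3′ UTR and shared with an overlapping annotated gene, was dimmer and gave a log2 difference of -0.03 (SE 0.625), with values of -1.56, -1.73, -1.19, -2.91, -1.44 and -0.03 and vehicle replicate 1 not above background. The SD of the chosen probe within a label was 1.35, larger than that of 99.9% of probes tested. One array decided the call: without vehicle replicate 1 the log2 difference was -2.57 (SE 0.19) and limma's adjusted p was 0.0463, and TAGLN was then 1 of 5 probes called on the whole array. With slide as a block the log2 difference was -1.44 (SE 1.3; limma, adjusted p = 0.988).

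**Figure D3:**
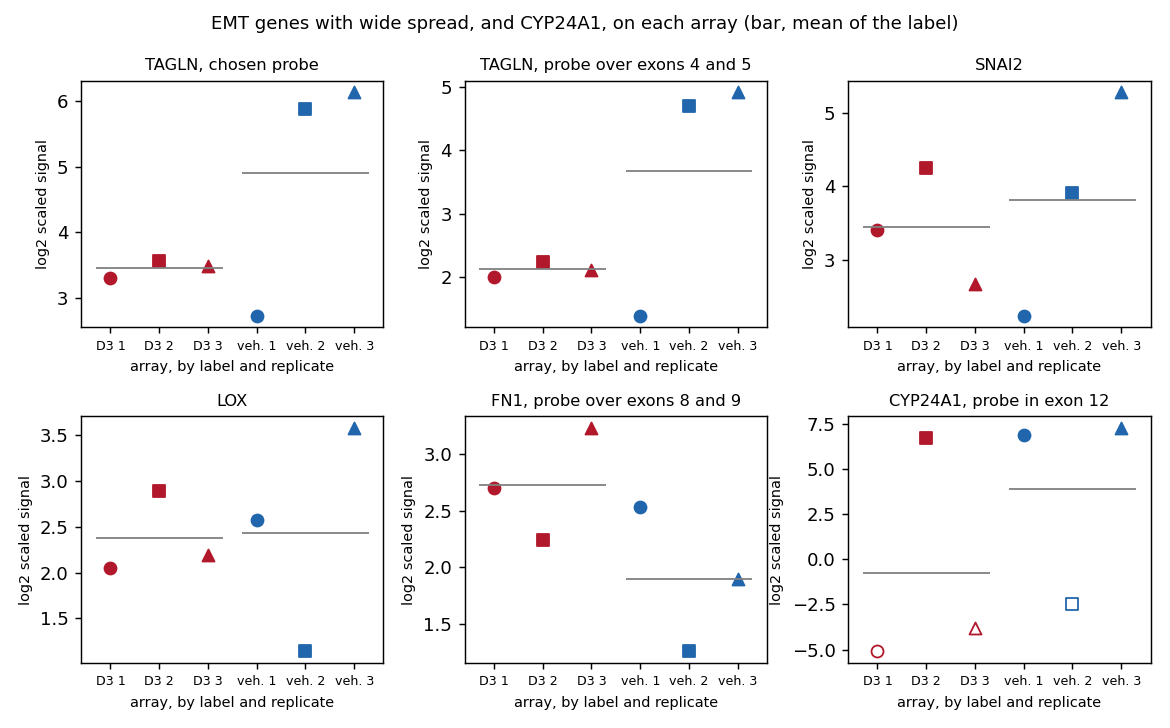
Scaled log2 signal, with 0 at the 75th percentile of an array, for TAGLN by 2 probes, SNAI2, LOX, FN1 and CYP24A1 on each array (red, 1,25(OH)2D3 label; blue, vehicle label; open symbols, not well above background), with a bar at the mean of each label. TAGLN is at 5.88 and 6.14 on vehicle replicates 2 and 3 and at 2.72 on vehicle replicate 1.

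The other contractile genes had other orders of arrays than TAGLN. ACTA2 (smooth muscle actin, the classical myofibroblast marker; probe at chr10:88938142-88938201, minus strand, exon 8 of 9, coding) read -1.44, -1.85, -1.37, -1.59, -3.48 and -2.35. It was not above background on vehicle replicate 2, where TAGLN was high, and it was tested only through the label where it is higher. The log2 difference was 0.92 (SE 0.433; 95% interval -0.09 to 1.92), and without vehicle replicate 1 it was 1.36 and met the looser rule (limma, adjusted p = 0.354). Without vehicle replicate 2 it was 0.42, and with the normexp background correction 0.29. CALD1 (caldesmon) and MYL9 (myosin regulatory light chain) were both highest on vehicle replicate 3, at 3.05 and 0.16, and lowest on vehicle replicate 2, at 0.69 and -1.91. Their log2 differences were -0.04 (95% interval -1.29 to 1.21) and -0.40 (95% interval -1.55 to 0.76). The tropomyosins TPM1 and TPM2, which line actin filaments, had log2 differences of 0.14 (SE 0.246) and -0.02 (SE 0.297), with all values between 4.43 and 5.30 for TPM1 and between 4.51 and 5.57 for TPM2.

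Among 12 matrix proteins and matrix enzymes, 7 were tested, 2 with a log2 difference above 0 and 5 below, and fibronectin (FN1) differed most. The FN1 probe joins exons 8 and 9 of 46, and the capitals mark the bases of exon 9:
FN1 (chr2:215423494-215424172, minus strand): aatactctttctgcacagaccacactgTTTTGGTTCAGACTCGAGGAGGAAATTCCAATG
It read 2.70, 2.24, 3.23, 2.53, 1.26 and 1.90, and vehicle replicate 1 lay between the arrays of the other label. The log2 difference was 0.83 (SE 0.363; limma, adjusted p = 0.712). With slide as a block, which leaves 1α,25(OH)2D3 replicate 3 alone for that label, it was 1.33. It met the looser rule without vehicle replicate 1 (1.14) and without 1α,25(OH)2D3 replicate 2 (1.07). It was 0.51 without vehicle replicate 2 and 0.57 without 1α,25(OH)2D3 replicate 3. The array carried 4 other FN1 probes that were above background on all 6 arrays, all to retained-intron transcripts, and their log2 differences were below 0, from -0.45 to -0.18. With slide as a block these 4 gave 0.19, 0.04, -0.19 and 0.27, so their sign varied with the setting. A further pair of retained-intron probes, above background on 4 arrays each, was tested only through the 1α,25(OH)2D3 label. They gave 0.48 and 0.35, and 1.11 and 0.2 with slide as a block. The fibroblast marker COL1A2 read 1.35, 0.16, 1.14, 0.52, -2.67 and -0.05, with its lowest signal, like those of FN1 and ACTA2, on vehicle replicate 2. Its part in their values was not tested.

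LOX (lysyl oxidase, which cross-links collagen) was the most variable of the 7 matrix genes tested. Its probe, in exon 6 of 7 and wholly coding, was:
LOX (chr5:122070091-122070150, minus strand): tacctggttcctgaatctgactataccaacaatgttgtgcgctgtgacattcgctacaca
LOX read 2.05, 2.89, 2.19, 2.57, 1.14 and 3.58, with its lowest and its highest value under the vehicle label. The SD within a label was 0.92, larger than that of 98.9% of probes tested, and the log2 difference was -0.05 (95% interval -1.35 to 1.25). The related oxidase LOXL2 had a log2 difference of -0.35 (95% interval -0.97 to 0.27). The proteoglycans VCAN (versican) and BGN (biglycan) gave -0.09 (95% interval -0.49 to 0.32) and -0.14 (95% interval -0.84 to 0.56). The secreted matrix proteins SPARC and FBLN1 (fibulin 1) gave 0.08 (95% interval -0.30 to 0.45) and -0.09 (95% interval -0.50 to 0.32). For all 5 of these genes the interval excluded a 2-fold difference between the labels, but with slide as a block those of LOXL2 (-1.52 to 0.37) and BGN (-1.28 to 1.02) included it. LUM (lumican) was above background on 1α,25(OH)2D3 replicate 1 only, at -3.05, and POSTN (periostin) and DCN (decorin) on none.

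Of the mesenchymal surface proteins 3 were tested, and their log2 differences lay below 0 without passing either threshold. CD44, the hyaluronan receptor, read 3.20, 3.65, 3.20, 3.20, 4.08 and 3.92, a log2 difference of -0.38 (95% interval -0.99 to 0.23). NT5E (CD73, an ectonucleotidase) had a log2 difference of -0.23 (95% interval -0.75 to 0.29). AXL, a receptor tyrosine kinase linked to EMT and drug resistance, read 5.08, 5.00, 4.83, 4.78, 5.19 and 5.23, a log2 difference of -0.10 (95% interval -0.52 to 0.33). Of the secreted signals, FSTL1 (follistatin-like 1) read 5.71, 6.04, 5.46, 6.34, 5.29 and 5.92, a log2 difference of -0.12 (95% interval -0.78 to 0.55). INHBA, the subunit of activin A, was above background on 1α,25(OH)2D3 replicate 1 at -2.79 and on vehicle replicate 3 at -0.98 and on no other array. WNT5A and the BMP antagonist GREM1 were above background on none.

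On the epithelial side, E-cadherin was at or near background. CDH1 (probe at chr16:68835311-68835370, plus strand, 3′ UTR of exon 16 of 16), the junction protein whose loss is a hallmark of EMT, read -4.72, -3.71, -4.91, -2.46, -4.79 and -3.49. Only the value on vehicle replicate 1 was well above background, and no fold between the labels can be given for it. ESRP1, an epithelial splicing regulator, passed background for 1α,25(OH)2D3 replicates 1 and 3 and for vehicle replicate 3, at -2.55, -2.03 and -2.43. Its paralogue ESRP2 was above background on all 6 arrays, with 1.41, 0.77, 1.61, 1.25, 1.47 and 1.47 and a log2 difference of -0.13 (95% interval -0.68 to 0.42). GRHL2, a transcription factor that activates CDH1, read -2.96, -2.77, -3.01, -2.65, -2.84 and -3.58. It passed background only for 1α,25(OH)2D3 replicates 1 and 2, though its highest value was on vehicle replicate 1. OVOL1 was above background on none, and OVOL2, a repressor of ZEB1, read -0.29, -0.10, -0.22, -0.12, 0.40 and -0.05, a log2 difference of -0.28 (95% interval -0.72 to 0.15). Thus 2 epithelial members were tested and both lay below 0, without passing either threshold.

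**Figure D4:**
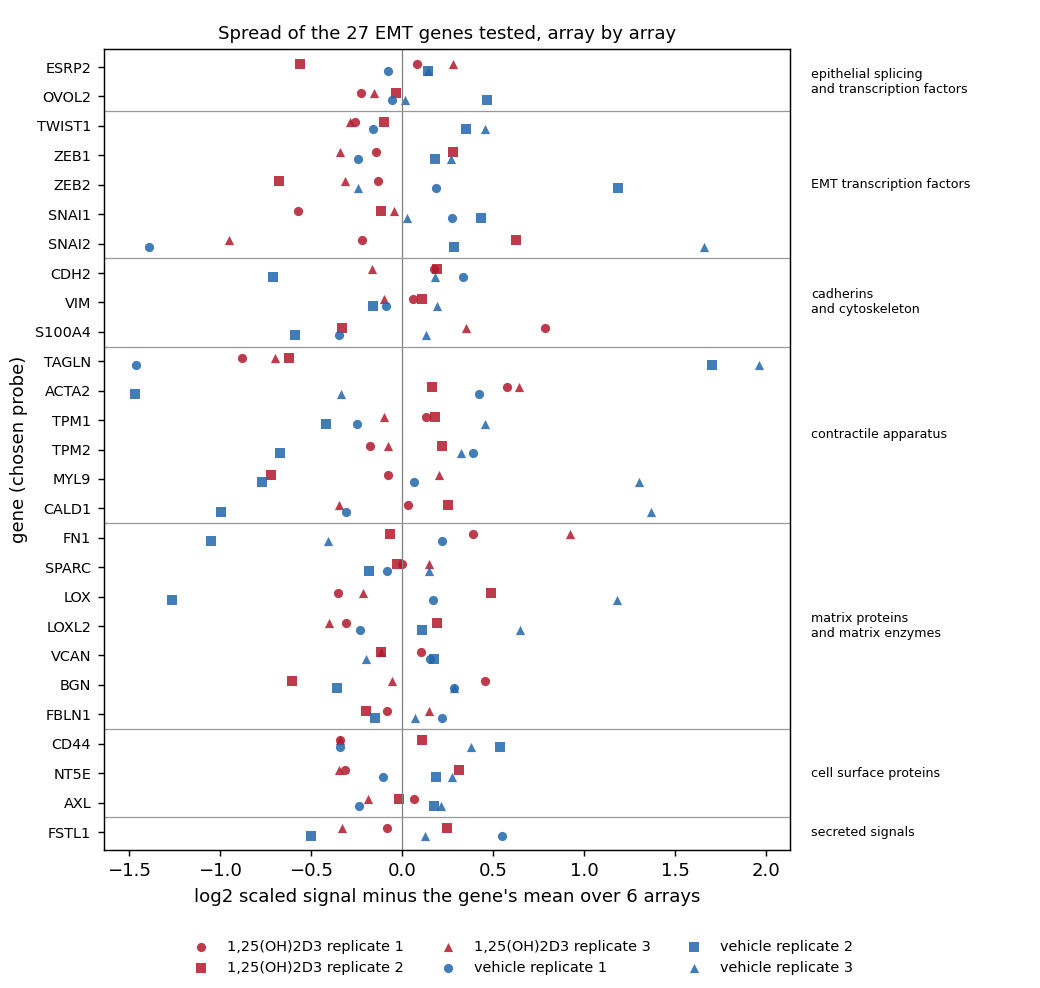
Each symbol is an array (red, 1,25(OH)2D3 label; blue, vehicle label; shape, replicate number), placed by its log2 signal minus the gene's mean over the 6 arrays. Red and blue symbols intermix in 26 of the 27 genes tested, and vehicle replicates 2 and 3 lie far apart for LOX, CALD1 and MYL9 but together for TAGLN.

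No mean or test was made over arrays split by the measured CYP24A1 signal. Only the order of arrays was compared with it. Among genes named after their values were seen, CDH2, LOX, FSTL1 and TPM2 had their lowest signal on vehicle replicate 2, at 0.75 for CDH2, 1.14 for LOX, 5.29 for FSTL1 and 4.51 for TPM2. Their 3 highest signals fell on 1α,25(OH)2D3 replicate 2 and vehicle replicates 1 and 3, though for CDH2 the lowest of these 3 was only 0.02 above the next array. These are the 3 arrays with high CYP24A1 signal. No other member tested had this order. The share of all probes that have it was not counted, so no link between these genes and CYP24A1 is drawn from it. TAGLN, SNAI2 and TWIST1 had other orders, with vehicle replicate 3 highest and vehicle replicate 2 among the 3 highest. Vehicle replicate 2 was the lowest array for other members as well, among them FN1, ACTA2, CALD1, MYL9 and TPM1. On that array 49.1% of probes were well above background, the smallest share of any array.

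Other genes of the programme were counted the same way. Of 30 further epithelial junction and polarity genes, 26 were above background on all 6 arrays and tested, among them CLDN7, DSP and DSG2. None met either threshold by limma or by the methods' t-test, 15 log2 differences were above 0 and 11 below, and the median was 0.09. An unadjusted limma p under 0.05 was found for 3 of 26, against 6.46% of all probes, namely the tight junction protein OCLN (log2 difference 0.49), the polarity protein CRB3 (0.56) and the desmosomal plakophilin PKP3 (-0.83). CLDN4, a claudin of tight junctions, read 1.48, 0.33, 1.98, 0.82, 0.11 and 0.47. Its log2 difference was 0.79 (SE 0.407), and 1.51 with slide as a block, which rests on 1α,25(OH)2D3 replicate 3 alone for that label. Of 18 further transcription factors tied to EMT, 12 were tested, with 3 log2 differences above 0 and 9 below, a median of -0.15 and none past either threshold. FOSL1, an AP-1 subunit, read 2.86, 4.55, 2.88, 2.67, 5.33 and 5.53, again with vehicle replicate 1 lowest and vehicle replicates 2 and 3 highest. Its log2 difference was -1.08 (SE 0.789), and without vehicle replicate 1 it was -2.00 and met the looser rule (limma, adjusted p = 0.35). Unlike TAGLN, FOSL1 was also high on 1α,25(OH)2D3 replicate 2.

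For several EMT genes, probes to transcripts without a coding sequence were flagged as above background. The members carried 134 sense probes in all, of which 65 matched a protein-coding transcript. A FAP probe to a retained-intron transcript read 1.26, 1.31, 1.73, 1.38, 1.21 and 1.73 and was above background on all 6 arrays, while the FAP probe in the 3′ UTR of the mRNA was above it on none. The other FAP probes to transcripts without a coding sequence were also above it on none, and the source of the bright signal was not tested. PDGFRB had 4 probes of this kind, and 3 of them were above background on all 6 arrays, with log2 differences of -0.07, -0.17 and 0.29. The FBN1 probe was above background on vehicle replicate 3 only. When any sense probe was allowed, 32 genes were above background on all 6 arrays in place of 26, and the 6 genes added were CDH11, FAP, INHBA, PDGFRB, POSTN and THY1. For these 6 the signal on all arrays came from probes that match no annotated coding transcript.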

How the data were processed

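RNA of 6 SKOV3 samples was hybridised to single-colour Agilent arrays, of which 3 bear the label 1α,25(OH)2D3 and 3 the label vehicle. The labels name the mirVana kit and the paper TRIzol. The authors scanned the arrays with Agilent Feature Extraction 10.7.1.1 and deposited spot intensity on a linear scale, background-corrected within the array, and a table of log2 values that were quantile-normalised between arrays (sorted columns differ by at most 0.00091; rank correlation with the scanner signals at least 0.9998; median 4.78 in every column).

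From the deposited intensity, control spots and the 1837 to 2471 outlier spots among 175812 per array were left out, and spots of a probe were averaged. Log2 values were taken relative to the array's 75th percentile. Between 49.1% and 57.6% of 125601 probes were well above background, no spot was saturated, and rank correlations between arrays were 0.934 to 0.96. The files name build hg19 and no gene symbol for the members, so probes were placed by exact matches to GENCODE release 44 transcripts (hg38); 26900 matched a protein-coding transcript in sense. An exact match does not measure cross-hybridisation. The chosen probes of TAGLN and ESRP2 overlap genes on the opposite strand (PCSK7 and NFATC3), and those of FAP and OVOL1 overlap annotated genes without a symbol there.

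limma 3.58.1 in R 4.3.3 was fitted without covariates to the 63372 probes flagged as well above background on each of the 3 arrays of either label, with Benjamini-Hochberg adjustment over all of them; 17 probes without a value were left out. The fit was tested on simulated data, 3 arrays against 3 over 63372 probes, and called 0 unchanged probes. Members and lists were chosen with earlier results of these data known. Named genes are all members, CYP24A1, list genes past a threshold or among the 3 brightest of a list, ERBB2, and markers of other cell types above background on all 6 arrays. OCLN, CRB3, PKP3, CLDN4, FOSL1, TWIST2, PAX8, COL1A2, COL3A1 and PDGFRA were named after their values were seen. One cell type marker is not reported here.

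Alternatives were quantile normalization, normexp with an offset of 50, the authors' log2 values, other background filters, replicate number or slide as a block, the second slide alone, other probes of a gene, adjustment over protein-coding probes, the methods' t-test and each array left out in turn. Use of probes to any sense transcript for the tests, and detection by any protein-coding probe, were added after seeing the data. The number of arrays limits the precision.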

Additional observations from a re-analysis of the deposited data

How the results depend on the processing

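With Benjamini-Hochberg adjustment in limma the count of members called was 0 under every alternative run except leaving out single arrays, where it ranged from 0 to 1 (TAGLN, without vehicle replicate 1). By the looser rule it was 1 without a filter on background (DCN, which was above background on no array) and 1 with slide as a block (FN1), 0 within the second slide, and 0 to 3 when single arrays were left out. For the other 2 lists together the looser count was 1 with slide as a block and 1 within the second slide (CLDN4 in either case), and 0 to 4 when single arrays were left out. Over all probes it was 514 (372 higher and 142 lower with the 1α,25(OH)2D3 label), and 32 with normexp (15 higher and 17 lower), 2006 without a filter, 162 with a filter on all 6 arrays, 162 by the methods' t-test, 791 with slide as a block and 782 within the second slide. Both slide settings set 1α,25(OH)2D3 replicate 3 alone against vehicle replicates 1 to 3. Without single arrays the count ran from 318 to 1230. The paired fit, with the replicate number as a block, gave 0 members by either rule. Same-numbered arrays shared deviations only weakly (correlations 0.124, 0.094 and -0.035), so the numbers were not taken as pairs, and the replicate block changed no call of the members or of the other 2 lists. Over all probes its looser count was 625 (452 higher and 173 lower).

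Of 495 alternative values of the 27 members' log2 differences, 451 kept their sign, and 9 genes never changed it. With slide as a block and within the second slide alike, the difference was -0.10 for CDH2, -0.08 for VIM, -0.03 for TPM1, 0.01 for MYL9, 0.10 for FBLN1 and 0.22 for ESRP2. With normexp it was -0.09 for VIM, 0.02 for VCAN, 0.02 for CALD1 and 0.01 for AXL. With the next brightest probe it was -0.15 for CDH2, -0.05 for VIM, 0.10 for LOXL2, 0.09 for CD44 and 0.28 for FBLN1. With the brightest probe of any sense transcript it was 0.29 for ZEB2 and -0.41 for FN1. When single arrays were left out, values ran from -0.19 to 0.33 for CDH2, -0.03 to 0.15 for VIM, -1.15 to 0.37 for SNAI2, -0.69 to 0.52 for LOX, -0.40 to 0.12 for FSTL1, -0.03 to 0.40 for TPM1, -0.37 to 0.17 for TPM2, -0.88 to 0.16 for MYL9, -0.55 to 0.63 for CALD1, -0.40 to 0.12 for BGN and -0.31 to 0.11 for ESRP2. For TAGLN they ran from -2.57 to -0.86. The causes were not tested. The count of members above background on all 6 arrays was 26, and 31 with the scanner's rule for a positive and significant signal.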
